A study of Mus musculus with 6 samples.

Results

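The genes described here are those whose mouse symbol is Zfp followed by a number, optionally with letters after it, as the array annotation gives it, leaving out Zfp42, a marker gene of embryonic stem cells. They were followed in E14 cells, an established mouse embryonic stem cell line grown on gelatin without feeder cells in serum with LIF, the cytokine that keeps such cells undifferentiated. On 3 arrays the cells had received an shRNA against Ncoa3, and on 3 arrays a scrambled shRNA. Both groups were transfected with the Lipofectamine reagent, both were collected at day 4, and each holds 3 biological replicates per the sample titles. Ncoa3 is a coactivator of nuclear receptors. An Esrrb shRNA is what the labels' treatment protocol mentions, whereas the titles and the design text name Ncoa3, so the knockdown group is called Ncoa3 shRNA here as its titles have it.

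The array carried 596 probes for 327 Zfp genes. A probe was measured when at least 3 of the 6 arrays gave it a detection p-value under 0.01. This rule kept 267 probes and 195 genes, out of 16674 measured probes and 11782 features (genes, and probes without a gene name) in the whole table. Of the 132 Zfp genes that were not measured, 113 were detected on 0 arrays, 15 on 1 array and 4 on 2 arrays by their best probe. At the edge of the rule lay 14 Zfp probes detected on exactly 3 arrays, which were kept, and 8 detected on 2 arrays, which were not. Of the 195 measured genes, 171 were detected on all 6 arrays and 24 on 3 to 5. A gene silent in 1 group was measured only if every array of the other group detected it, so counts over measured genes are descriptions of those genes.

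Most Zfp symbols denote proteins with tandem C2H2 zinc fingers, small folds that each hold a zinc ion and together read a stretch of DNA. Many also carry a KRAB box, which recruits the corepressor TRIM28 and, through it, the histone methyltransferase SETDB1 and heterochromatin proteins, and in embryonic stem cells this machinery keeps retroelements silent and protects imprinted loci. Other Zfp genes encode transcription factors without a KRAB box, RNA-binding proteins or ubiquitin ligases. KRAB zinc finger genes arose by duplication and many lie side by side in clusters, with large ones on mouse chromosome 7.

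The state of the cells was checked first. The Ncoa3 probe stayed at background throughout, detected on 0 of 6 arrays, with raw intensity of 87.6 to 91.0 on Ncoa3 shRNA arrays and 85.0 to 97.4 on scrambled arrays, so these arrays give no check of the knockdown. Esrrb, a nuclear receptor of the stem cell network, had log2 intensity of 13.51, 13.37 and 13.35 with Ncoa3 shRNA and of 14.07, 14.01 and 14.01 with scrambled shRNA (limma, change -0.62 ± 0.07 SE, adjusted p = 0.000255). Over all features, the same limma fit called 22.5% higher and 24.3% lower, the shares to set beside the marker counts that follow. Of 8 embryonic stem cell markers, 7 were lower and 1 higher, with a summed signal of 55297 to 57380 on Ncoa3 shRNA arrays and 69682 to 72423 on scrambled arrays. Of 9 trophectoderm markers 6 were measured. Cdx2, Krt19 and Gata3 were detected on 3 Ncoa3 shRNA arrays and 0 scrambled arrays, so they were measured only through the group where they are high. Krt8, Krt18 and Tfap2c were detected in both groups and were higher. The 6 summed to 4397 to 4657 with Ncoa3 shRNA and 2107 to 2272 with scrambled shRNA, while Eomes and Hand1 were detected on 0 arrays and Elf5 on 1 scrambled array. Of 6 endoderm markers 3 were measured (2 higher, 1 lower; summed 3662 to 3731 with Ncoa3 shRNA, 2190 to 2347 with scrambled shRNA; Gata4 and Sox17 not detected). Of 4 neural markers Nes alone was measured and was higher (188 to 220.5 with Ncoa3 shRNA, 26.0 to 31.7 with scrambled shRNA), while Pax6, Sox1 and Tubb3 were not detected on any array. Of 6 fibroblast markers 0 were measured. The part of these shifts in the Zfp changes was not tested, and in bulk RNA fewer cells of a type and less RNA per cell cannot be told apart.

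Knockdown arrays detected 16262 to 17105 probes and scrambled arrays 15720 to 16311. Among Zfp probes the numbers were 264 to 273 with Ncoa3 shRNA and 253 to 255 with scrambled shRNA. Across the 195 genes, Pearson correlations ran from 0.961 to 0.966 between groups and from 0.989 to 0.993 within a group, as a description over genes that share each array. The number of arrays limits the precision: an exact permutation of 3 against 3 cannot go below p = 0.1, so all calls come from a limma fit across all features, with Benjamini-Hochberg adjusted p under 0.05, and they measure the spread between these samples.

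Zfp genes moved in both directions, and the share called was below that of the whole table, a difference that was not itself tested and that turned round without the filter on dim probes (19.3% of 327 Zfp genes, 16.5% of 29453 features). After Ncoa3 knockdown 33 of the 195 were higher and 38 lower, and 124 were not called. This balance depended on the scaling, with 49 higher and 17 lower under median scaling over all probes, 45 and 27 with the authors' normalized values, and 38 and 32 with cyclic loess. The 71 called genes were 36.4% of those measured, beside 46.9% of all features. Higher calls made up 16.9% of Zfp genes and 22.5% of all features, and lower calls 19.5% of Zfp genes and 24.3% of all features. Fitted changes of at least 1.5-fold were called for 20 Zfp genes, 11 higher and 9 lower, which is 10.3% beside 16.1% of all features (9.31% higher and 6.82% lower over all features). The 11 include Zfp703, whose rise is only bounded at 1.16-fold. Zfp703 and Zfp202, both counted among the 33, were measured only through the knockdown arrays. The values of the groups did not overlap for 95 Zfp genes, or 48.7%, beside 57.8% of all features.

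The size of the changes was small for most of these genes. Their median log2 change, Ncoa3 shRNA minus scrambled, was -0.03 with quartiles of -0.21 and 0.14, beside a median of -0.03 with quartiles of -0.24 and 0.22 over all features. The median size of change, whatever its direction, was 0.18 for Zfp genes and 0.23 for all features, while the median standard error was 0.083 for Zfp genes and 0.080 for all features. The extremes were +1.97 for Zfp608 and -1.81 for Zfp521. No Zfp gene other than Zfp608, Zfp365, Zfp750 and Zfp521 had a fitted change beyond 1 log2 unit.

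**Figure D1:**
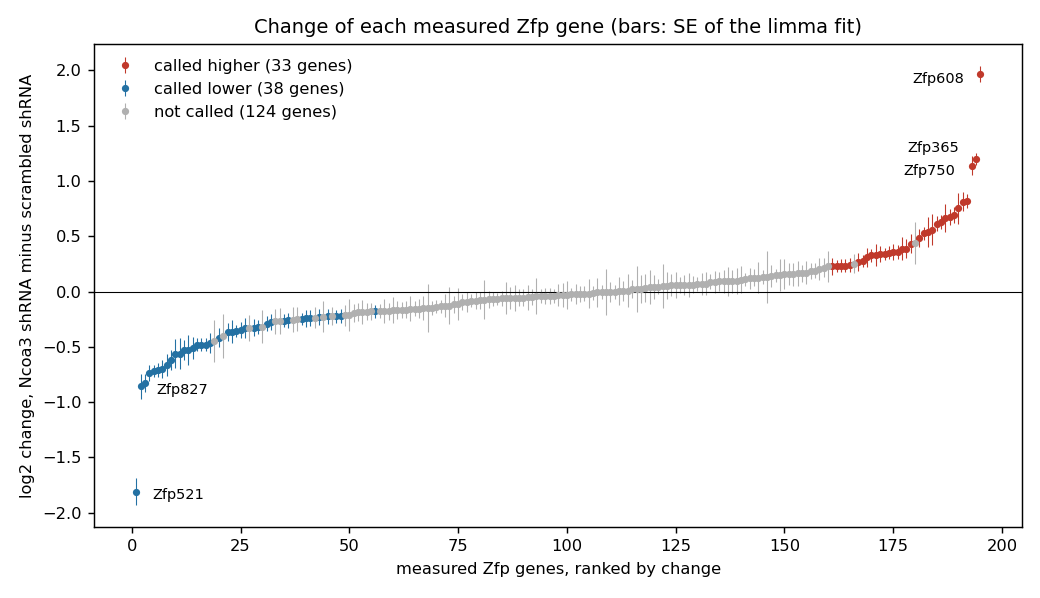
Each point is 1 of the 195 measured Zfp genes, ranked along the x axis by its log2 change (Ncoa3 shRNA minus scrambled shRNA, y axis), with the standard error of the limma fit as a bar. The 33 red points were called higher, the 38 blue points lower and the 124 grey points were not called, and Zfp608 at +1.97 and Zfp521 at -1.81 stand at the ends.

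Zfp genes were dimmer than the table, with a median log2 intensity of 7.12 beside 7.78, so the calls were also counted by signal. Features were split by mean signal into 3 classes of equal size, dim, middle and bright, at log2 intensities of 6.69 and 9.01. In the dim class 28% of 75 Zfp genes were called, beside 41.5% of features. In the middle class it was 39.1% of 92 Zfp genes, beside 51.5%, and in the bright class 50% of 28 Zfp genes, beside 47.6%. Among the 171 Zfp genes detected on all 6 arrays, 28 were higher and 37 lower, or 38% called, beside 47.2% of the 10241 features detected on all 6. The lower share of calls was thus seen among dim and middling Zfp genes and not among the 28 bright ones, and the difference between these shares was not tested.

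**Figure D2:**
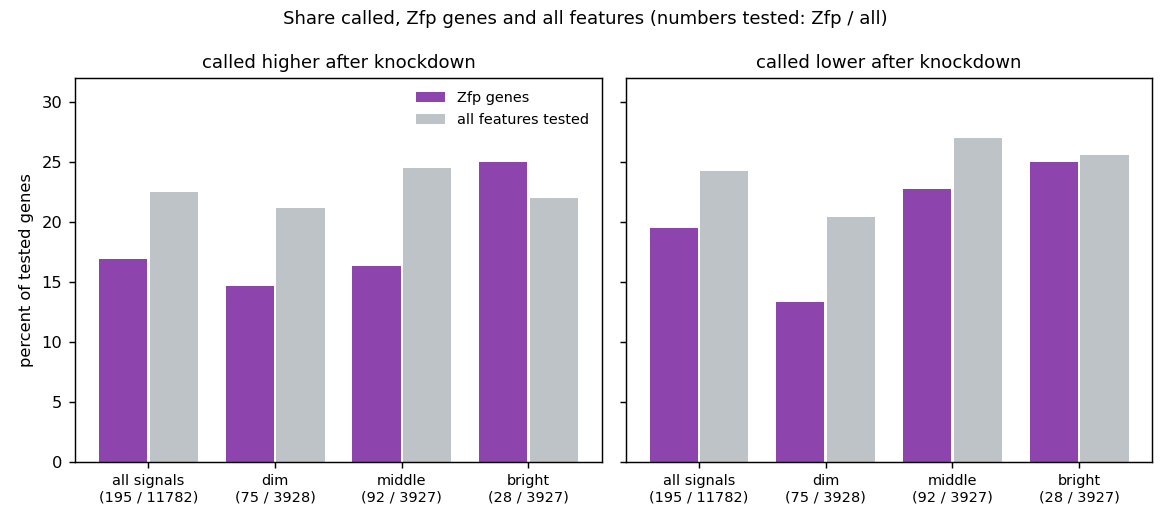
Bars give the percent of tested genes called higher (left panel) or lower (right panel) after Ncoa3 knockdown, for Zfp genes (purple) and for all features tested (grey), over all signals and in 3 equal classes of mean signal. Overall 16.9% of Zfp genes were called higher and 19.5% lower, beside 22.5% and 24.3% of all features. In the bright class the Zfp shares were 25% in each direction.

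The largest rise was that of Zfp608, which in mouse thymocytes represses the Rag recombinase genes. Its log2 intensity was 7.50, 7.71 and 7.65 with Ncoa3 shRNA and 5.65, 5.65 and 5.65 with scrambled shRNA, a 3.92-fold rise (change 1.97 ± 0.07 SE, limma adjusted p = 1.74e-06). The change was 1.16 without background correction, 1.25 with normexp at an offset of 50 and 1.19 with the authors' values. The groups did not overlap, and every scrambled array sat at the same low level. Zfp609, its paralog and counterpart in Rag control, was not detected on any array.

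Zfp365, the mouse gene for a zinc finger protein that binds the scaffold protein DISC1, had 10.71, 10.68 and 10.72 with Ncoa3 shRNA and 9.53, 9.52 and 9.46 with scrambled shRNA. All 3 knockdown arrays were above all 3 scrambled arrays, by 2.30-fold (1.20 ± 0.06 SE, limma adjusted p = 5.5e-06), and its 2 probes gave 1.20 and 1.22. Zfp750, a transcription factor of epidermal differentiation that acts downstream of p63, had 7.42, 7.63 and 7.56 with Ncoa3 shRNA and 6.30, 6.48 and 6.42 with scrambled shRNA. It was 2.20-fold higher with no overlap (1.14 ± 0.08 SE, limma adjusted p = 3.99e-05). Zfp362 had 8.78, 8.79 and 8.79 with Ncoa3 shRNA and 8.02, 7.996 and 7.88 with scrambled shRNA, and was 1.76-fold higher, again without overlap (0.82 ± 0.06 SE, limma adjusted p = 5e-05).

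Zfp703, the mouse counterpart of a human corepressor that acts as an oncogene in luminal breast cancer, was detected on all 3 knockdown arrays and on 0 scrambled arrays. Its values were 5.42, 5.40 and 5.31 with Ncoa3 shRNA and 4.43, 4.73 and 4.53, not above background, with scrambled shRNA. The level in scrambled cells is therefore only bounded, and the gene was at least 1.16-fold higher. It was measured only through the group where it is high, so no p is given. The bound sets the knockdown mean against, on each scrambled array, the higher of the probe's own value and the lowest signal among detected probes. Zfp202 was the only other measured Zfp gene without a detected scrambled array, at 5.29, 5.12 and 5.40 with Ncoa3 shRNA and 4.88, 4.94 and 4.83 with scrambled shRNA, at least 1.08-fold higher, and it too was measured only through the knockdown arrays.

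The rest of the 10 largest rises, ranked by fitted change, lay between 1.55-fold and 1.68-fold. Zfp703 stands among the 10 by a fitted change that is no bound, so its rank is not known. Zfp316 had 5.75, 5.85 and 5.77 with Ncoa3 shRNA and 5.34, 4.75 and 5.03 with scrambled shRNA, where 1 of 3 arrays detected it (0.75 ± 0.14 SE, limma adjusted p = 0.00364; 2 probes, 0.56 and 0.75). Over the alternative analyses described at the end, the Zfp316 change ran from 0.27 to 0.92. Zfp688 had 8.30, 8.28 and 8.25 with Ncoa3 shRNA and 7.70, 7.47 and 7.64 with scrambled shRNA (0.68 ± 0.08 SE, limma adjusted p = 0.000321). Zfp607b had 7.06, 6.94 and 6.74 with Ncoa3 shRNA and 6.21, 6.48 and 6.06 with scrambled shRNA (0.66 ± 0.13 SE, limma adjusted p = 0.00392). In each of these 3 genes the lowest knockdown array was above the highest scrambled array. Zfp809 and Zfp36, which complete the 10, are given with their roles below.

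The largest fall was that of Zfp521, a partner of the transcription factor EBF1 that drives neural conversion of mouse embryonic stem cells. Its log2 intensity was 5.39, 5.27 and 4.92 with Ncoa3 shRNA, detected on 2 of these 3 arrays, and 6.95, 6.97 and 7.09 with scrambled shRNA. The groups were far apart and the gene fell 3.51-fold (-1.81 ± 0.12 SE, limma adjusted p = 2.81e-05). The change was -0.91 without background correction, -0.99 with normexp at an offset of 50 and -0.88 with the authors' values. Zfp423, its paralog, had 7.35, 7.51 and 7.56 with Ncoa3 shRNA and 7.71, 7.81 and 7.54 with scrambled shRNA, groups that overlap (-0.21 ± 0.09 SE, limma adjusted p = 0.0958). The other Zfp423 probe read -0.26 (limma adjusted p = 0.0363 with every measured probe tested). Nes, the only neural marker measured, was higher on the same arrays, while Pax6, Sox1 and Tubb3 were not detected on any array.

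Zfp827, whose human counterpart brings the NuRD chromatin remodeller to telomeres, had 5.41, 5.30 and 5.44 with Ncoa3 shRNA and 6.43, 5.99 and 6.29 with scrambled shRNA, a 1.81-fold fall (-0.86 ± 0.11 SE, limma adjusted p = 0.000744). Over the alternative analyses this change ran from -0.98 to -0.38. Zfp710 had 9.33, 9.43 and 9.45 with Ncoa3 shRNA and 10.09, 10.31 and 10.30 with scrambled shRNA, a 1.78-fold fall (-0.83 ± 0.08 SE, limma adjusted p = 0.000162; the other probe -0.63). Neither gene's groups overlapped. Zfp459 had 6.98, 7.05 and 6.96 with Ncoa3 shRNA and 7.72, 7.72 and 7.70 with scrambled shRNA (-0.72 ± 0.06 SE, limma adjusted p = 6.8e-05). Zfp280b had 8.55, 8.50 and 8.42 with Ncoa3 shRNA and 9.20, 9.24 and 9.15 with scrambled shRNA (-0.71 ± 0.06 SE, limma adjusted p = 0.000102). Both fell 1.64-fold, again without overlap.

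Zfp599 had 5.65, 5.70 and 5.47 with Ncoa3 shRNA and 6.25, 6.36 and 6.32 with scrambled shRNA (-0.70 ± 0.08 SE, limma adjusted p = 0.000315). Zfp385c had 5.47, 5.64 and 5.48 with Ncoa3 shRNA and 5.998, 6.30 and 6.28 with scrambled shRNA (-0.66 ± 0.10 SE, limma adjusted p = 0.00129). Zfp846 had 5.30, 5.58 and 5.23 with Ncoa3 shRNA and 5.69, 6.09 and 6.01 with scrambled shRNA (-0.56 ± 0.13 SE, limma adjusted p = 0.00996). These 3 genes were dim, and all 3 knockdown arrays lay below all 3 scrambled arrays in each. Over the alternative analyses their changes shrank to as little as -0.31, -0.29 and -0.24, in that order. Zfp819 and Zfp296, the remaining 2 of the 10 largest falls, follow with their roles.

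**Figure D3:**
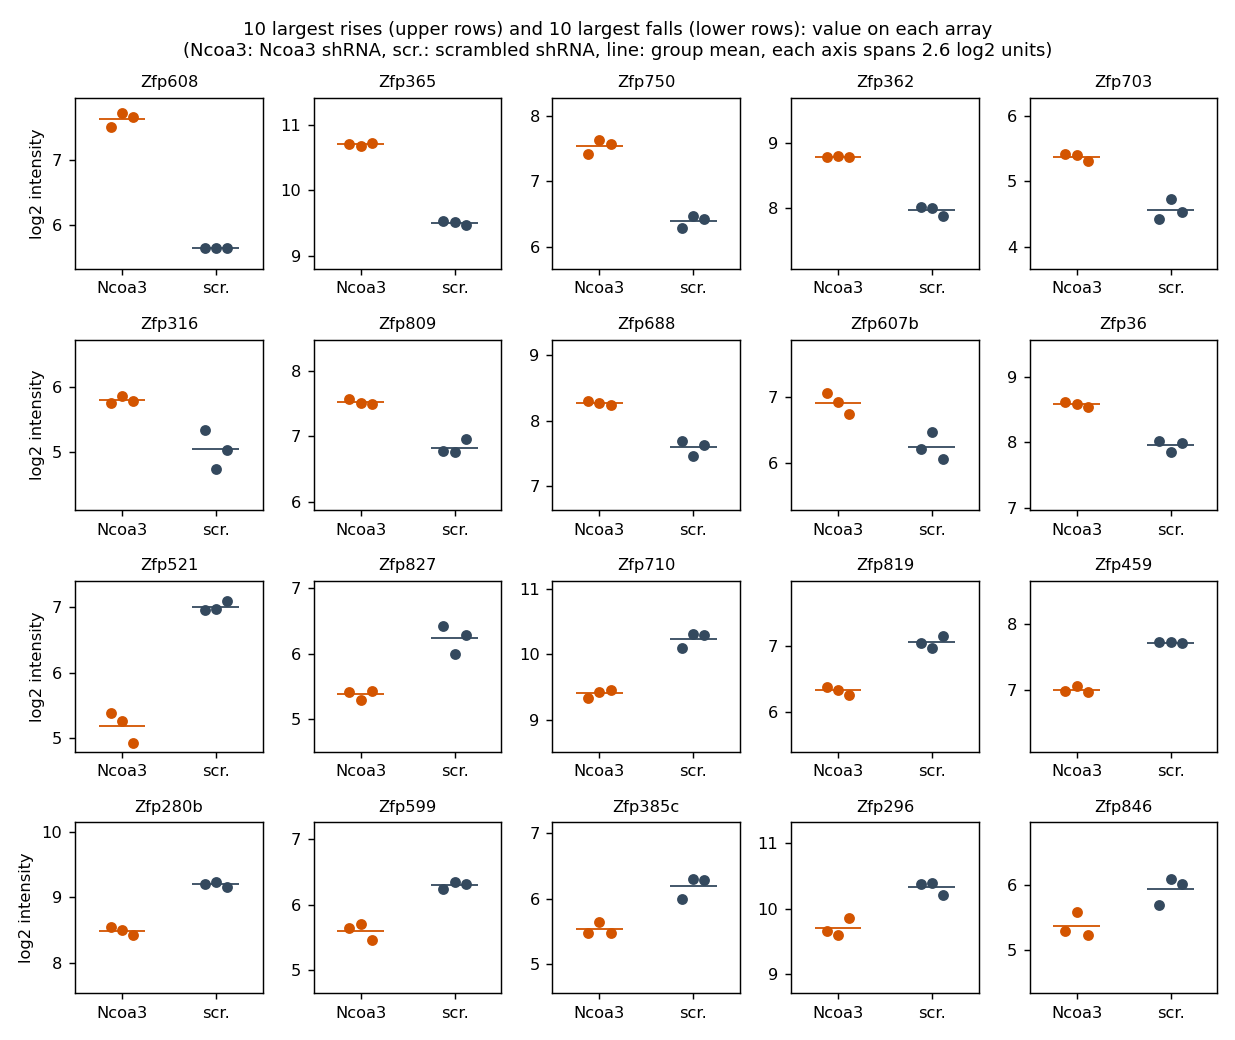
Normalized log2 intensity (y axes, each spanning the same range) of the 10 Zfp genes with the largest rises (upper rows) and the 10 with the largest falls (lower rows), with 1 point per array, Ncoa3 shRNA left of scrambled shRNA, and a line at each group mean. In all 20 genes the 3 Ncoa3 shRNA arrays lie entirely above or entirely below the 3 scrambled arrays. The 20 were picked by the size of their called change on these same arrays, so this separation is no independent result. Over all features the groups did not overlap for 57.8%.

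Among repressors of imprinted genes and retroelements, 4 genes were measured, and 2 rose and 1 fell, where 46.9% of all features were called. Zfp809, a KRAB protein that recognises the primer binding site of murine leukaemia virus and recruits TRIM28 to it, had 7.57, 7.50 and 7.48 with Ncoa3 shRNA and 6.77, 6.75 and 6.96 with scrambled shRNA. It was 1.62-fold higher without overlap (0.69 ± 0.07 SE, limma adjusted p = 0.000265). Zfp568, which silences a placental promoter of Igf2 in the mouse embryo, had 5.84, 5.81 and 5.99 with Ncoa3 shRNA and 5.27, 5.47 and 5.45 with scrambled shRNA, and was also higher on every knockdown array (0.49 ± 0.08 SE, limma adjusted p = 0.00222).

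Zfp819, a TRIM28-binding KRAB protein that represses endogenous retroviruses in pluripotent mouse cells, moved the other way. It had 6.38, 6.34 and 6.27 with Ncoa3 shRNA and 7.06, 6.98 and 7.17 with scrambled shRNA, a 1.67-fold fall (-0.74 ± 0.07 SE, limma adjusted p = 0.000162). Zfp445, which maintains imprints, had 6.25, 6.86 and 6.33 with Ncoa3 shRNA and 5.92, 6.36 and 6.78 with scrambled shRNA. Its groups overlapped and its spread was wide (0.13 ± 0.24 SE, limma adjusted p = 0.681). Zfp57, Zfp708 and Zfp932 of the same list were not analysed here.

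KRAB proteins act through shared cofactors. Of 26 genes on a TRIM28 pathway list 17 were measured, 3 higher and 4 lower, or 41.2% called, near the 46.9% of all features (22.5% higher, 24.3% lower), with a median log2 change of -0.09. Trim28 itself had 13.53, 13.53 and 13.54 with Ncoa3 shRNA and 13.80, 13.77 and 13.75 with scrambled shRNA (-0.24 ± 0.05 SE, limma adjusted p = 0.0085). Setdb1 changed by -0.09 ± 0.06 (limma adjusted p = 0.285). The larger falls were those of Uhrf1, which guides maintenance DNA methylation (-0.42 ± 0.06 SE), and Chaf1a, a histone chaperone subunit (-0.26 ± 0.06 SE). Cbx3, a heterochromatin protein, fell at the threshold (-0.25 ± 0.09 SE, limma adjusted p = 0.0499), its second probe read 0.00, and the call held in 7 of 17 alternatives, with losses without any 1 Ncoa3 shRNA replicate or scrambled replicate 1 or 2. The 3 rises were those of Dnmt3b, Cbx5 and Atf7ip. Dnmt3b, a de novo DNA methyltransferase, rose by 0.59 ± 0.06 SE, and its second probe read 0.21. Cbx5, another heterochromatin protein, rose by 0.53 ± 0.08 SE. Atf7ip, a SETDB1 partner, rose by 0.30 ± 0.07 SE, and its second probe read -0.22.

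Among stem cell and chromatin regulators 14 of 21 genes on the array were measured, with 3 higher, 4 lower and 7 not called. That is 50% called, near the 46.9% of all features. Zfp703, Zfp521 and Zfp827 are described above, and Zfp703, counted among the 3 higher, was measured only through the knockdown arrays. Zfp296, a KLF4-binding protein that promotes reprogramming in mouse cells, had 9.66, 9.60 and 9.85 with Ncoa3 shRNA and 10.37, 10.39 and 10.21 with scrambled shRNA. It fell 1.54-fold without overlap (-0.62 ± 0.09 SE, limma adjusted p = 0.00103), and its other probe read -0.58. Zfp219, a partner of Sox9 in mouse cartilage cells, had 11.08, 11.04 and 11.07 with Ncoa3 shRNA and 10.79, 10.74 and 10.68 with scrambled shRNA, a 1.25-fold rise (0.33 ± 0.06 SE, limma adjusted p = 0.003; the other probe 0.17).

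Zfp532 and Zfp592, whose human counterparts sit in 1 complex with the chromatin reader ZMYND8, were near the threshold in opposite directions. Zfp532 had 10.61, 10.81 and 10.61 with Ncoa3 shRNA and 10.37, 10.52 and 10.45 with scrambled shRNA (0.23 ± 0.08 SE, limma adjusted p = 0.0465). Zfp592 had 6.73, 6.76 and 6.78 with Ncoa3 shRNA and 6.90, 7.003 and 6.90 with scrambled shRNA (-0.18 ± 0.06 SE, limma adjusted p = 0.0412). Neither call was stable, as Zfp592 held in 1 of 17 alternative analyses and Zfp532 in 8 of 17, and both were lost whichever array was left out. Zfp687, the other member of that complex, was not detected on any array.

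Of the 7 not called, Zfp281, a NuRD-linked repressor of Nanog, had 9.41, 9.49 and 9.32 with Ncoa3 shRNA and 9.21, 9.16 and 9.30 with scrambled shRNA, and its groups were narrowly apart (0.18 ± 0.07 SE, limma adjusted p = 0.0746). The other Zfp281 probe, equally bright at a mean log2 intensity of 9.31, read 0.29 (limma adjusted p = 0.016 with every measured probe tested). The missing call thus depends on which probe stands for the gene. Zfp148, the paralog of Zfp281, had 6.47, 6.44 and 7.01 with Ncoa3 shRNA and 7.22, 7.28 and 6.75 with scrambled shRNA, groups that overlap (-0.44 ± 0.19 SE, limma adjusted p = 0.0941; the other probe 0.01). Zfp644, a partner of the G9a and GLP histone methyltransferases, read 0.07 ± 0.07 and Zfp518b, whose human counterpart binds G9a, read -0.00 ± 0.06. Zfp335, a nuclear receptor coregulator, read 0.06 ± 0.10, and Zfp410, which controls the NuRD subunit gene Chd4, read -0.17 ± 0.08, with other probes up to 0.11. On the array but not measured were Zfp217, Zfp322a, Zfp462, Zfp503, Zfp518a, Zfp609 and Zfp687, and Zfp143 was not analysed here.

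Genes for RNA handling, ribosome work and protein modification gave 1 call among 12 measured, a rise of Zfp36. That is 8.33%, beside 46.9% of all features, a difference that was not tested. The median standard error was 0.115 on this list and 0.080 over all features. The groups did not overlap for 4 of the 12 genes, or 33.3%, beside 57.8% of all features. Zfp36 encodes tristetraprolin, which binds AU-rich elements and speeds mRNA decay, and had 8.61, 8.59 and 8.54 with Ncoa3 shRNA and 8.01, 7.86 and 7.99 with scrambled shRNA. It was 1.55-fold higher without overlap (0.63 ± 0.07 SE, limma adjusted p = 0.000239). Zfp36l1, its paralog, falls outside the symbol rule and was also higher, at 12.90, 13.07 and 12.96 with Ncoa3 shRNA and 12.46, 12.53 and 12.39 with scrambled shRNA (0.52 ± 0.07 SE, limma adjusted p = 0.00084; 3 probes, 0.26 to 0.52). Zfp36l2 was not detected on any array.

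The other 11 genes of that list had fitted changes from -0.33 to 0.25. Zfp598, a ubiquitin ligase that senses collided ribosomes, had 7.20, 7.07 and 7.36 with Ncoa3 shRNA and 7.77, 7.40 and 7.43 with scrambled shRNA (-0.33 ± 0.12 SE, limma adjusted p = 0.0552). Zfp91, a ubiquitin ligase in human cells, had 8.64, 8.60 and 8.79 with Ncoa3 shRNA and 8.28, 8.55 and 8.45 with scrambled shRNA (0.25 ± 0.09 SE, limma adjusted p = 0.0501). Both missed the threshold narrowly although neither gene's groups overlapped. Zfp593, a ribosome assembly factor in human cells, read -0.27 ± 0.12. Zfp451, a SUMO ligase, read -0.19 ± 0.08, and Zfp207, a spindle assembly factor that binds Bub3, read -0.15 ± 0.07. Zfp106, an RNA-binding protein needed in motor neurons, read -0.25 ± 0.11 by its brighter probe and 0.25 by the other.

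The remaining 5 read between -0.05 and 0.15. Zfp385a, which steers p53 towards arrest genes, read 0.15 ± 0.14, and Zfp638, a nuclear protein that silences unintegrated retroviral DNA in human cells, read 0.09 ± 0.13. Zfp346, which binds double-stranded RNA, read -0.03 ± 0.06, and Zfp473, of histone pre-mRNA processing, read -0.05 ± 0.12. Zfp326, of the complex that couples elongation to splicing in human cells, read 0.02 ± 0.12 by its brightest probe. Its other probes read 0.46 and 0.51 (limma adjusted p = 0.0424 and 0.0332 with every measured probe tested).

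**Figure D4:**
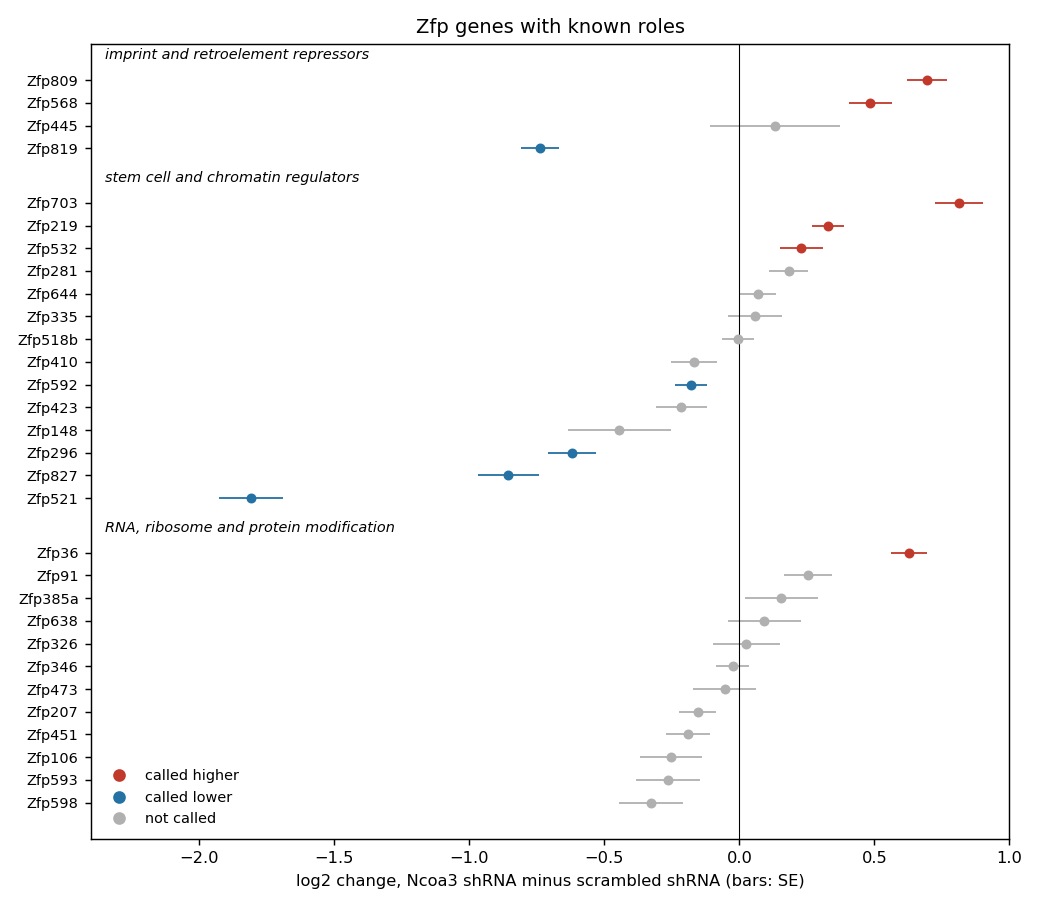
Log2 change (x axis, Ncoa3 shRNA minus scrambled shRNA, with standard error) of the 30 measured Zfp genes on the 3 role lists, ordered by change within each list. Red points were called higher, blue points lower and grey points were not called. Imprint and retroelement repressors split 2 higher to 1 lower, stem cell and chromatin regulators 3 to 4, and the RNA, ribosome and protein modification list held the single rise of Zfp36.

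Genes sharing a number did not always move alike. Zfp607a and Zfp607b, both on chromosome 7, were called in opposite directions. Zfp607a had 5.67, 5.95 and 5.87 with Ncoa3 shRNA and 6.04, 6.36 and 6.17 with scrambled shRNA (-0.36 ± 0.11 SE, limma adjusted p = 0.0268; the other probe -0.62), beside the rise of Zfp607b given above. Whether the probes tell these similar genes apart was not tested, so both values are uncertain, and the Zfp607a call was lost in 6 of 17 alternatives, 4 of them without Ncoa3 shRNA replicate 1 or 3 or scrambled replicate 2 or 3. Zfp280b and Zfp280c both fell, the second from the X chromosome at 5.73, 5.72 and 6.07 with Ncoa3 shRNA and 6.15, 6.59 and 6.37 with scrambled shRNA (-0.53 ± 0.14 SE, limma adjusted p = 0.0158). The Zfp280c call was lost without Ncoa3 shRNA replicate 1, without Ncoa3 shRNA replicate 2 and under median scaling over all probes. Zfp280d read 0.22 ± 0.08 (limma adjusted p = 0.0716).

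Of the 195 genes, 61 had several measured probes, and in 14 of them the probes differed in sign. Among the 23 called genes with several probes, 2 had probes of opposite sign. Zfp276 read -0.51 by its brightest probe and up to 0.03 by others, and Zfp661 read -0.24 by its brightest probe and 0.09 by the other, and the Zfp661 call held in 7 of 17 alternatives, with losses without Ncoa3 shRNA replicate 2 or 3 or any 1 scrambled replicate. The other 48 called genes rest on 1 probe each. Some genes not called had another probe past the threshold with every measured probe tested. Examples are Zfp2 (-0.48, limma adjusted p = 0.00251) and Zfp62 (0.47, limma adjusted p = 0.0329). The number not called thus also depends on which probe stands for a gene.

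The measured Zfp genes were concentrated on chromosome 7, which held 52 of them, or 26.7%, beside 8.08% of all named genes measured. There 9 were higher, 12 lower and 31 not called, on a chromosome where 48.4% of all named genes were called (19.3% higher, 29.1% lower). Chromosome 13 held 13, of which 0 were higher and 1, Zfp459, was lower, where 26.1% of all named genes were higher and 17.9% lower. Chromosome 5 held 11, with 3 higher and 0 lower, where 22.1% of all named genes were higher and 22.5% lower. Chromosome 18 held 8, among them both extremes of the whole set, with 4 higher (Zfp608, Zfp516, Zfp236 and Zfp532), 2 lower (Zfp521 and Zfp397) and 2 not called, on a chromosome where 59.6% of all named genes were called.

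**Figure D5:**
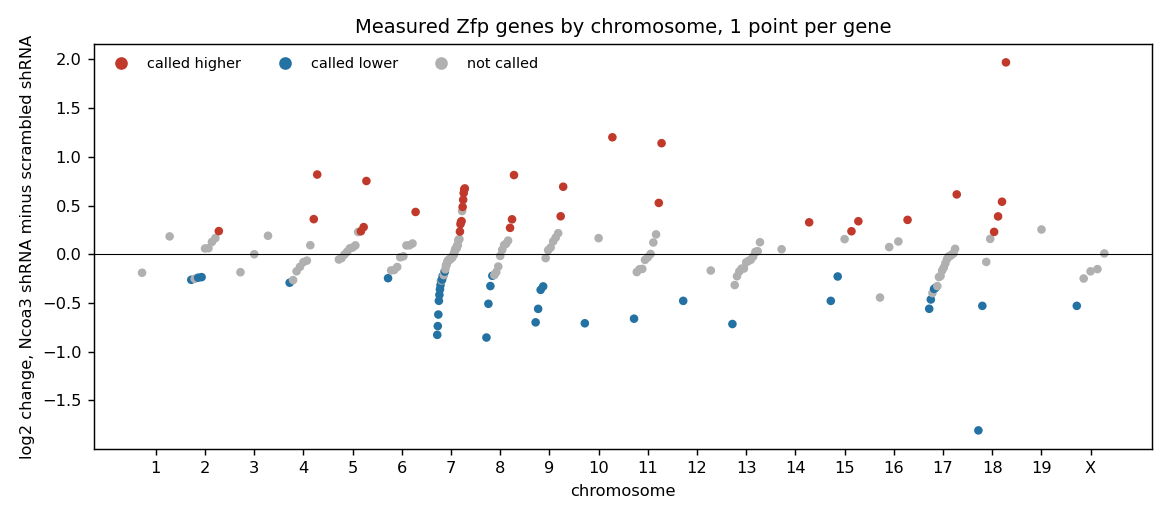
Log2 change (y axis, Ncoa3 shRNA minus scrambled shRNA) of each measured Zfp gene by chromosome (x axis), in red where called higher, blue where called lower and grey where not called. Chromosome 7 carries 52 of the 195 points, in both directions, and chromosome 18 carries both the highest and the lowest point.

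Runs of adjacent Zfp genes held calls in either direction, where 36.4% of all measured Zfp genes and 46.9% of all features were called. In gene order 52 of the measured genes formed 20 runs of neighbours. The longest run, 6 genes on chromosome 6 with Zfp398 and Zfp746 in it, held 0 calls. In 2 runs a called rise stood next to a called fall. On chromosome 9 these were Zfp809 (0.69) and Zfp599 (-0.70), with Zfp810 at 0.17 ± 0.10 and not called. On chromosome 15 they were Zfp623 (0.24 ± 0.06 SE, limma adjusted p = 0.014) and Zfp707 (-0.23 ± 0.07 SE, limma adjusted p = 0.033). The Zfp707 call, on which the second of these runs rests, held in 8 of 17 alternatives and was lost with cyclic loess, the authors' values, median scaling over all probes, no filter, the replicate block, and without Ncoa3 shRNA replicate 1 or 2 or scrambled replicate 1 or 3.

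In 3 runs 2 genes were called in 1 direction, each time higher. They were Zfp236 (0.39 ± 0.10 SE) with Zfp516 (0.54 ± 0.13 SE) on chromosome 18, Zfp12 (0.24 ± 0.06 SE) with Zfp316 on chromosome 5, and Zfp787 (0.23 ± 0.06 SE) with Zfp444 (0.33 ± 0.10 SE) on chromosome 7. The Zfp444 call held in 11 of 17 alternatives and was lost without a filter, with the replicate block, and without Ncoa3 shRNA replicate 1 or 3 or scrambled replicate 1 or 3. The Zfp236 call was lost without scrambled replicate 2. In 5 runs no gene was called. Whether neighbours were called alike more often than other Zfp genes was not tested.

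Because Ncoa3 acts through nuclear receptors, promoter windows were searched for their half-site, AGGTCA, and for the longer AAGGTCA and TCAAGGTCA, the last being the extended site that Esrrb binds and both longer ones containing AGGTCA. The windows reach from 250 bases before to 50 after the start of a gene, on RefSeq's GRCm38.p6 annotation, and were found for 156 of the 195 genes and for 27025 genes in all, on both strands. AGGTCA was in windows of 19 of the 156 Zfp genes, or 12.2%, beside 18.1% of all genes. It was in 3 of the 21 higher, 6 of the 30 lower and 10 of the 105 genes not called. TCAAGGTCA was in 2 Zfp genes, or 1.28% beside 0.466%, and in 0 of the called ones, and AAGGTCA in 4.49% beside 5.38%. A match is a run of letters and not a shown binding site.

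Shares were also counted for other short motifs. All genes, here and above, are the 27025 with a window, whether or not these arrays measured them. The 156 Zfp genes are measured ones only, so the shares are not on like sets. GGGCGG, bound by Sp proteins, was in 56.4% of Zfp genes and 38.2% of all genes. CCAAT, bound by NF-Y, was in 49.4% and 41.1%. TGCGCA, which is within the site of NRF1, was in 17.9% and 8.79%. It was in 12 of 46 Zfp genes on chromosome 7, beside 16 of 110 on other chromosomes. TGCCGC was in 23.1% and 13.1%, and went the other way by chromosome, in 6 of 46 on chromosome 7 beside 30 of 110. These differences between chromosomes were not tested. TGACTCA, the AP-1 site, was in 4.49% and 5.95%.

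Windows of 4 of the 9 called genes with AGGTCA are printed to show where the half-site lies, the 3 with the largest falls and, for comparison, the rise of Zfp219. They were chosen after their values were seen. Each is given from 5′ to 3′ on the gene's own strand, from RefSeq's GRCm38.p6, and the capitals mark AGGTCA or its reverse complement TGACCT. Zfp296 lies at chr7:19577037-19577336 on the + strand, with the site starting at -62. Zfp280b lies at chr10:76032362-76032661 on the + strand, with the site at -34. Zfp385c, which has 3 windows, is shown at chr11:100650644-100650943 on the - strand, with the site at -88. Zfp219, which has 2 windows, is shown at chr14:52019664-52019963 on the - strand, with sites at -209 and -32.
Zfp296: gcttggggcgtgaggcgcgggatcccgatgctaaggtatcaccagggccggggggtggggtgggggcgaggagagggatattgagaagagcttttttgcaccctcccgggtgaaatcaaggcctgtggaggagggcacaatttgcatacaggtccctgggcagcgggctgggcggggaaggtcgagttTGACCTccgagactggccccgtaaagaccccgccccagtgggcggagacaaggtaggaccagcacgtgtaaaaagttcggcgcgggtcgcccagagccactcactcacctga
Zfp280b: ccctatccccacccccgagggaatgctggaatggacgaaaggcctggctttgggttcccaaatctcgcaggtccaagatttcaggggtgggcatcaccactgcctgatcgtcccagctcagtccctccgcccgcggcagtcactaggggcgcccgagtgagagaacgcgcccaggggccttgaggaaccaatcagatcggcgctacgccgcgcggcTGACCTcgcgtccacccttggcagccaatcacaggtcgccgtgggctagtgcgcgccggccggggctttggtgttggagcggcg
Zfp385c: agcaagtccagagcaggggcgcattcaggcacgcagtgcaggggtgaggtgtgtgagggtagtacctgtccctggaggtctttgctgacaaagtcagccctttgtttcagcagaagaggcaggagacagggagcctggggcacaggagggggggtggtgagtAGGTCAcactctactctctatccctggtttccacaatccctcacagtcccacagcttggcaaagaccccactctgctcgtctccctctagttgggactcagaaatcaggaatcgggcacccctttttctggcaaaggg
Zfp219: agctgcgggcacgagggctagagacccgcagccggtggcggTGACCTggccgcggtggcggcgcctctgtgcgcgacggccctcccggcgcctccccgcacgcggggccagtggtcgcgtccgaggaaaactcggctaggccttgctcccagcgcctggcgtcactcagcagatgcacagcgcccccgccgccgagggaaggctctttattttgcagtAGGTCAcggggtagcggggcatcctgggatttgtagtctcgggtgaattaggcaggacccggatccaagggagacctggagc

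The windows differed in composition as well. G and C made up 63.3% of the Zfp296 window, 66.3% of Zfp280b and 69.0% of Zfp219, with 19, 27 and 31 CpG pairs in that order, while the Zfp385c window held 57.3% and 4 CpG pairs.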

How the data were processed

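Total RNA of 6 samples was measured on Illumina bead arrays. Groups and replicate numbers came from the sample titles. Raw probe intensity, linear and not normalized per the file headers, was read from the table the authors deposited, which also gave a deposited detection p-value for each probe. The authors' normalized intensity values, a second deposited table, kept the order of the raw signal (rank correlation 1), and their method is not given in the sources used here.

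Signals were background-corrected from the detection p-values and quantile normalized with neqc (offset 16) in limma 3.58.1 under R 4.3.3, and taken as log2. Probes with detection p under 0.01 on at least 3 of 6 arrays were kept, and a gene stood for its probe of highest mean. The groups were compared with lmFit and eBayes, without covariates, over 11782 features. Names came from the platform annotation, and chromosomes and gene order from RefSeq (GRCm38.p6). The limma fit was also run on simulated log2 values in which only a small part of the features changed. That run did not test normalization, the detection filter or probe choice. Depth does not apply to arrays, and no slide or scan date is given in the sources used here, so a slide block could not be fitted.

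The members, role lists, marker lists and motifs were chosen with earlier results of these data known. The named genes are the 10 largest called rises and 10 largest called falls, every measured member of 3 role lists, and up to 3 called genes each way of the TRIM28 list. Families, neighbours, Trim28, Setdb1, Zfp36l1, Zfp202, Zfp276, Zfp661 and the promoters shown were singled out after their values were seen. Planned groupings by KRAB box and finger number from protein sequence were not made, because protein sequences were not used here. Alternatives covered background, normalization, filter, probe choice, variance model, replicate block and each array left out. Median scaling over kept probes was added after seeing the data.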

Additional observations from a re-analysis of the deposited data

How the results depend on the processing

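Over 17 alternatives, the number of Zfp genes called higher lay between 28 and 49 and the number called lower between 17 and 44, and in 0 alternatives was a called Zfp gene called in the opposite direction. Of the 71 calls, 43 held in every alternative that gave a value (26 higher, 17 lower) and 28 were lost in at least 1. Of the 24 called genes among the 43 named Zfp genes, 22 held in all, the exceptions being Zfp592 and Zfp532. Most of the 24 were chosen as the largest called changes on these arrays, so their holding is partly built in. Zfp703, counted among the 22, was measured only through the knockdown arrays. Zfp608 ranged from 1.16 to 2.12, Zfp365 from 1.13 to 1.31 and Zfp521 from -1.90 to -0.88.

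The balance of rises and falls depended on the scaling. Higher calls were 46.5% of the calls in the fit reported, 74.2% with median scaling over all probes (49 higher, 17 lower) and 62.5% with the authors' normalized values (45 higher, 27 lower). Under median scaling over all probes all features had a median of 0.09, against -0.03, and Zfp genes one of 0.111. The Zfp median was 0.00202 with cyclic loess, 0.0172 with the authors' values, -0.0459 with median scaling over kept probes and -0.0195 without a filter on dim probes. It ran from -0.0539 to -0.0171 with 1 array left out in turn, so its sign cannot be read. Those leave-one-out fits gave 28 to 34 higher and 31 to 37 lower calls. TRIM28 pathway genes called lower numbered 2 with median scaling over all probes, and those called higher numbered 6 with the authors' values. Cbx3 held its fall in 7 of 17 alternatives, while Trim28, Uhrf1, Dnmt3b, Cbx5 and Atf7ip held in all 17. Without the filter, 31 higher and 32 lower were called among 327 Zfp genes, or 19.3%, beside 16.5% of 29453 features.

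Same-numbered samples showed no shared deviation (correlations of same-numbered deviations -0.00349, -0.0125 and 0.0162). Whether they were prepared together cannot be read from these values. With the replicate block 32 Zfp genes were called higher and 34 lower. The causes of these differences were not tested. Dim genes limit what can be read: 132 of 327 Zfp genes were not measured, and folds of the dimmest measured genes shrank without background correction, as for Zfp703.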
